A study of Homo sapiens with 42 samples.

Results

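Cells carrying COPB2 shRNA 2 were compared with cells carrying COPB2 shRNA 1, a different hairpin against the same gene. All 28 libraries of the series that carry either shRNA were taken, 14 with each, out of 42 in all. The other 14 libraries carry a control shRNA and served only as the reference level. RNA was measured in human lung fibroblasts in 4 cell states. IMR90 is an established fibroblast strain. In its derivative IMR90 ER:RAS, oncogenic RAS is fused to part of the oestrogen receptor and becomes active when 4-hydroxytamoxifen (4OHT) is added. ER:RAS cells had received DMSO or 100 nM 4OHT, which leads to oncogene-induced senescence (OIS). IMR90 cells had received DMSO or bleomycin at 50 µg/ml for 24 h, a drug that breaks DNA and leads to therapy-induced senescence. All cells were then kept for 7 days, given doxycycline at 1 µg/ml to switch on the hairpin for 72 h, and collected at day 10. Each shRNA was represented by 3 libraries in both ER:RAS states and by 4 libraries in both IMR90 states. Every group, the controls included, is of wild-type genotype per the labels, carries an inducible hairpin and received doxycycline. The labels do not say how libraries of a group relate, and the study describes the n of its enrichment plots of these knockdowns as separate experiments.

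COPB2 encodes the beta-prime subunit of coatomer, the coat of COPI vesicles that carry proteins and membrane back from Golgi to endoplasmic reticulum (ER). A block of this traffic loads the ER and can switch on the unfolded protein response (UPR), in which the kinase PERK raises the transcription factor ATF4 and its targets in amino acid synthesis and stress. A hairpin is cut to a short guide that leads Argonaute to a matching messenger RNA. The guide's seed, bases 2 to 8, can also pair with the 3′ untranslated region (UTR) of other transcripts and lower them, so 2 guides against a gene share their target but not their seed.

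Both guides are shown with the seed in capitals because they are what separates the groups. They were taken from the study's list of hairpins, where numbers 1 and 2 were read as the numbers of the labels.
shRNA 1: tTAAATATctttacaatgctgt
shRNA 2: tAATTGAAcactctaatctgca
Guide 1 has 5 G or C among its 22 bases and guide 2 has 7. Their sites in the COPB2 messenger RNA lie in different coding exons, and capitals mark the bases that face the seed.
Site of shRNA 1: acagcattgtaaagATATTTAa
Site of shRNA 2: tgcagattagagtgTTCAATTa
The site of shRNA 1 lies at chr3:139088345-139088366 (GRCh37, minus strand), in coding exon 11 of 22 of transcript COPB2-201, from base 1323 of 3275. The site of shRNA 2 lies at chr3:139097987-139098008 in coding exon 4, from base 333. Each site matched its guide at every base. Among the transcripts of all other genes, 0 carried a site with 3 or fewer mismatches to either guide.

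Total counts ran from 13148194 to 23597310 per library. Levels are given as CPM, counts relative to the scaled total of the library. All 10 fibroblast markers examined, COL1A1 and VIM among them, had a mean of at least 1 CPM with either shRNA. So did 3 of 6 epithelial, 2 of 5 endothelial and 1 of 6 immune markers. By the higher of both means, KRT18 stood at 88.8 CPM, TEK at 15.3 CPM and CD68 at 53.4 CPM. That mean was 0.613 CPM for the epithelial marker EPCAM, 0.389 CPM for the endothelial marker CDH5 and 0.391 CPM for the leukocyte marker PTPRC. Libraries with the same state and replicate number deviated together, with correlations of 0.543 to 0.983 in all 14 such pairs, so differences within these pairs are given beside the unpaired test. In the replicate 3 libraries of all 8 groups COPB2 was above the mean of its group and genes of high GC content were lower, and the part of this shift in the results was not tested except through the GC and length offset below.

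shRNA 1 and shRNA 2 lowered COPB2 to similar levels, with slightly more COPB2 left under shRNA 2. In DMSO-treated ER:RAS cells, COPB2 was at 44.04, 33 and 59.9 CPM with shRNA 1 and at 43.4, 44.2 and 67.7 CPM with shRNA 2. In OIS the levels were 100.2, 94.6 and 108 CPM against 119, 100.01 and 123 CPM. The DMSO-treated IMR90 cells had 43.5, 45.7, 70.5 and 45.6 CPM against 63.0, 52.1, 81.2 and 56.9 CPM. In each of these states the groups overlapped, and replicate 3 was the highest library with either shRNA. With bleomycin, shRNA 1 gave 79.0, 96.8, 108 and 85.7 CPM and shRNA 2 gave 81.5, 81.2, 114 and 92.2 CPM, which overlap throughout.

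Relative to the mean of the control libraries of the same state, COPB2 stood at 17.3% ± 4.70 (SD, n = 14, from 9.61% to 24.6%) with shRNA 1 and at 19.2% ± 4.45 (SD, n = 14, from 12.6% to 25.8%) with shRNA 2. The means by state with shRNA 1 and shRNA 2 were 13.3% and 15.1% in DMSO-treated ER:RAS cells, 21.01% and 23.7% in OIS, 13.9% and 17.2% in DMSO-treated IMR90 cells, and 21.001% and 20.9% after bleomycin. More COPB2 was left with shRNA 2 in 12 of 14 pairs. The fitted log2 fold change of shRNA 2 over shRNA 1 was 0.16 (SE 0.10, adjusted p 0.925; edgeR's quasi-likelihood test with Benjamini-Hochberg adjustment), and 0.16 (SE 0.05, adjusted p 0.101) within pairs. With an offset for GC content and transcript length the paired difference was 0.20 (adjusted p 0.00174), and DESeq2 with the pairs called a difference of 0.16, so whether COPB2 differs between the shRNAs depends on these choices. By state the fitted difference was 0.18 in DMSO-treated ER:RAS cells, 0.17 in OIS, 0.30 in DMSO-treated IMR90 cells and -0.01 after bleomycin, each with an adjusted p above 0.9.

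**Figure D1:**
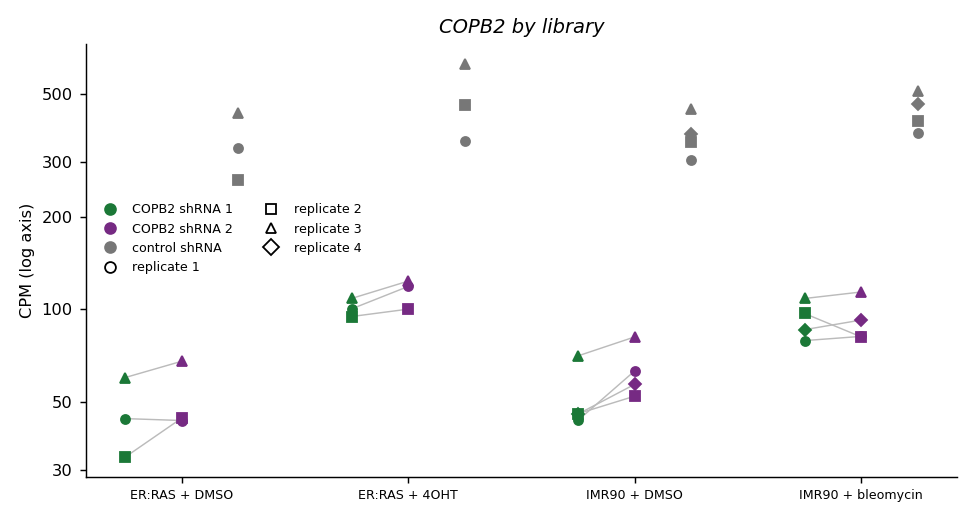
COPB2 level in CPM (log axis) in each library, by cell state; green marks shRNA 1, purple shRNA 2 and grey the control shRNA, marker shapes give the replicate number, and lines join same-numbered libraries. The 28 knockdown libraries lie below every control library, and the purple point is above the green one in 12 of 14 pairs.

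Across the states the transcriptomes with both hairpins were close. Of 15063 genes tested with the state as a factor, 0 (0%) passed an adjusted p of 0.05 in the unpaired test, with 755 at an unadjusted p under 0.05, and DESeq2 called 5, namely COL8A2, ARHGAP26, SLITRK5 and FBXL14, lower with shRNA 2, and LURAP1L, higher. Within pairs, edgeR's quasi-likelihood test with Benjamini-Hochberg adjustment called 259 genes (1.72%), 107 higher (0.71%) and 152 lower (1.01%) with shRNA 2. The differences were small. Among the called genes the median absolute log2 fold change was 0.29 for those higher and 0.31 for those lower, against 0.11 over all genes tested, and 6 genes, all lower, reached 1. Of the 259 genes, 251 had the same sign in at least 12 of 14 pairs and 67 in all 14. The same pairs selected these genes, so shared signs follow from the selection and are no separate support.

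The number of calls moved with the libraries and the scaling. It fell to 49 without pair 3 of DMSO-treated ER:RAS cells and rose to 515 without pair 2 of bleomycin-treated cells, and 46 of the 259 genes were called whichever pair was left out. With the GC and length offset the paired test called 1108 genes (7.36%), 685 higher (4.55%) and 423 lower (2.81%), and 233 of the 259 were among them in the same direction. DESeq2 with the pairs as a block called 903 of 11558 genes (7.81%), 237 of the 259 among them.

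**Figure D2:**
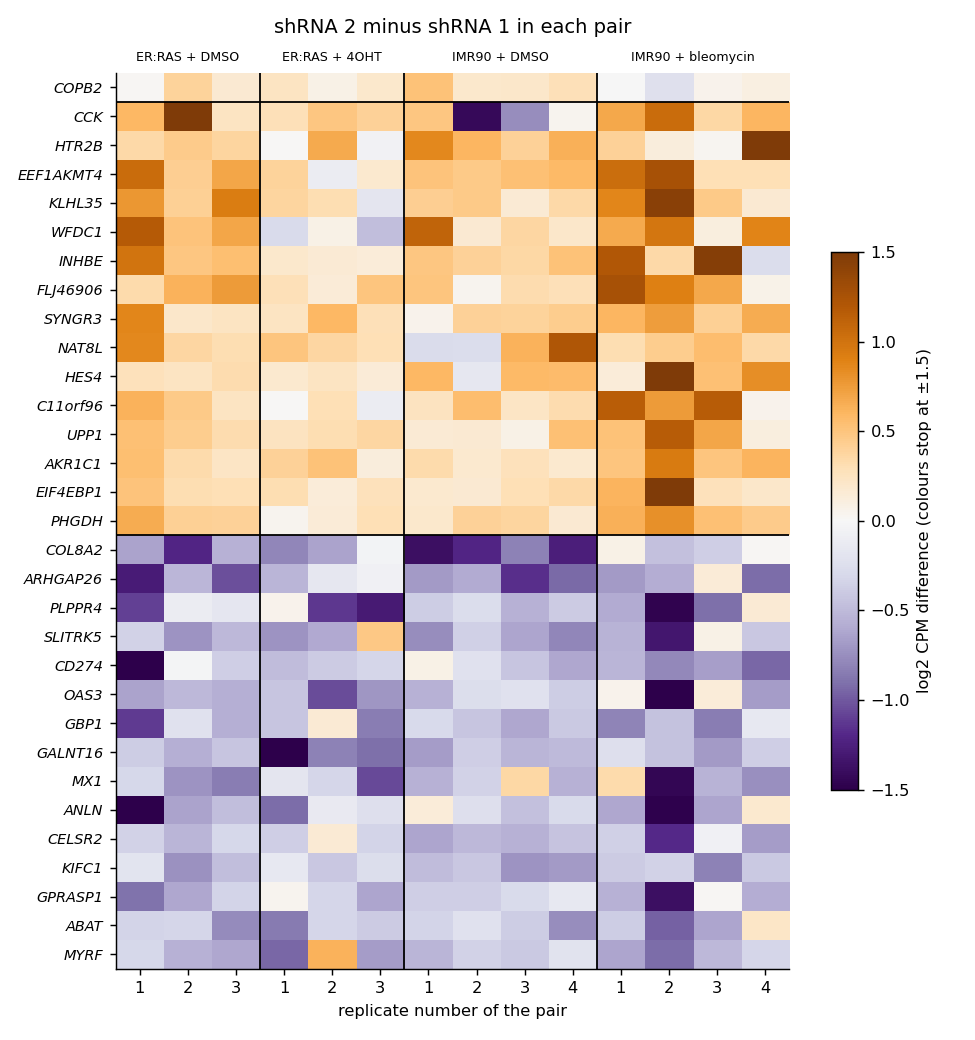
Difference in log2 CPM, shRNA 2 minus shRNA 1, in each of the 14 same-numbered pairs, for COPB2 and the 15 called genes most raised and the 15 most reduced within pairs; orange is higher and purple lower with shRNA 2, and colours stop at 1.5. Most cells of a row share a colour across the 4 states, which the choice of genes called on these pairs favours. Pair 2 of the bleomycin-treated cells holds many of the deepest colours.

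Genes of the PERK and ATF4 arm made up the clearest group that was higher with shRNA 2. Of 29 members tested, 13 were higher and 0 lower within pairs, against 1.72% called over all genes, and 28 had a fitted difference above 0. The median log2 fold change was 0.18, beside -0.01 over all genes tested. By state the median in the unpaired fit was 0.26 in DMSO-treated ER:RAS cells, 0.15 in OIS, 0.16 in DMSO-treated IMR90 cells and 0.24 after bleomycin. Leaving out each pair in turn gave 6 to 14 members called higher and 0 lower, with the fewest without pair 3 of DMSO-treated ER:RAS cells. The GC and length offset gave 20 higher and 0 lower, beside 4.55% and 2.81% over all genes.

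ATF4 itself was higher with shRNA 2 in 14 of 14 pairs. Its levels in DMSO-treated ER:RAS cells were 331, 368 and 331 CPM with shRNA 1 and 428, 444 and 396 CPM with shRNA 2. In OIS they were 404, 479.7 and 390.04 CPM against 472, 567 and 457 CPM, and in DMSO-treated IMR90 cells 309, 263, 309 and 249.7 CPM against 366, 308, 373 and 294 CPM. After bleomycin they were 212, 203, 201 and 296 CPM against 256, 361, 252 and 318 CPM. The groups were separate only in DMSO-treated ER:RAS cells and overlapped in the other 3 states. The paired log2 fold change was 0.29 (SE 0.05, adjusted p 0.00875, edgeR), and leaving out any pair kept the call. Against the control shRNA, ATF4 differed by 0.41 with shRNA 1 and 0.70 with shRNA 2 on the log2 scale.

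PHGDH, the enzyme that starts serine synthesis, was also higher in 14 of 14 pairs. After bleomycin its levels were 39.6, 49.4, 33.7 and 38.9 CPM with shRNA 1 and 63.9, 85.3, 49.1 and 53.4 CPM with shRNA 2. In DMSO-treated ER:RAS cells they were 203, 251 and 142 CPM against 313, 344 and 188 CPM. Its groups overlapped in all 4 states, while each pair moved the same way. The paired log2 fold change was 0.39 (SE 0.06, adjusted p 0.0047, edgeR).

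INHBE, which encodes an inhibin subunit and is a target of ATF4, was the member farthest from the control. Its means in DMSO-treated ER:RAS cells were 4.521 ± 1.5003 CPM with shRNA 1 and 7.13 ± 1.58 CPM with shRNA 2 (SD, n = 3). In OIS they were 34.7 ± 12.4 and 38.6 ± 12.8 CPM, in DMSO-treated IMR90 cells 3.59 ± 0.965 and 4.92 ± 1.22 CPM, and after bleomycin 2.69 ± 1.41 and 4.16 ± 0.956 CPM. It was higher with shRNA 2 in 13 of 14 pairs, by 0.46 (SE 0.11, adjusted p 0.0372, edgeR), and lost the call in 9 of the 14 fits that left out a pair.

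The other called members were stress regulators and enzymes of amino acid supply. DDIT3 (CHOP) differed by 0.38 and TRIB3, a pseudokinase that restrains ATF4 signalling, by 0.39. CHAC1, which degrades glutathione, differed by 0.36, the mTORC1 inhibitor DDIT4 by 0.33 and the translation repressor EIF4EBP1 by 0.40. Among the metabolic members, PSAT1 of serine synthesis differed by 0.29, the amino acid transporter chain SLC3A2 by 0.27 and the mitochondrial folate enzyme MTHFD2 by 0.16. The stress protein NUPR1 and the transcription factor CEBPB differed by 0.36 and 0.30. DDIT4, EIF4EBP1, MTHFD2 and SLC3A2 were higher in all 14 pairs. EIF4EBP1 owed much to pair 2 of the bleomycin-treated cells, at 1.83, and lost the call in 12 of the 14 fits without a pair.

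**Figure D3:**
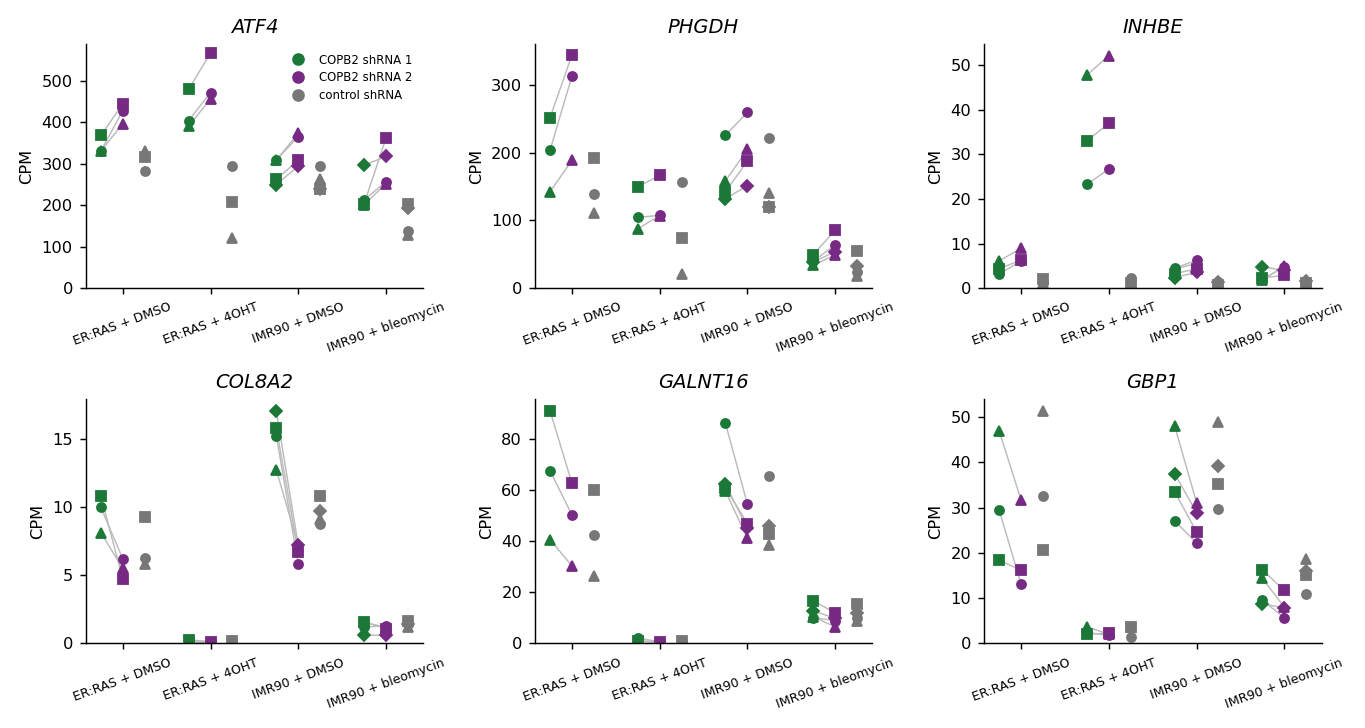
Level in CPM of 6 named genes in each library, by cell state; green marks shRNA 1, purple shRNA 2 and grey the control shRNA, shapes give the replicate number, and lines join same-numbered libraries. Lines of ATF4 and PHGDH slope up and those of GALNT16 slope down in all 14 pairs, while the levels of each gene differ more between states than between the shRNAs.

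The arm of the UPR run by ATF6 and XBP1 differed in fewer members. Of 38 tested, 5 were higher and 0 lower within pairs, beside 0.71% and 1.01% over all genes. The median log2 fold change was 0.05, and leaving out pairs gave 2 to 10 higher. The GC and length offset gave 11 higher and 0 lower, beside 4.55% and 2.81% over all genes. The called genes were the transcription factor XBP1 (0.30), HERPUD1 of ER-associated degradation (0.27), the secreted ER proteins MANF (0.28) and CRELD2 (0.25), and SRPRB, a subunit of the signal recognition particle receptor (0.25). XBP1 and SRPRB were higher in all 14 pairs. HERPUD1 was at 124, 123, 123 and 171 CPM with shRNA 1 after bleomycin and at 179, 212, 184 and 180.4 CPM with shRNA 2, without overlap. Its difference was called in the paired edgeR test (adjusted p 0.0317) but lost in 6 of the 14 fits without a pair.

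Messenger RNAs of COPI traffic genes differed little between the hairpins in the paired edgeR test, and traffic itself was not measured. Of the 9 coatomer subunits tested, 0 were called, COPB2 included, and the median log2 fold change was 0.05. With the GC and length offset 1 was called, and with paired DESeq2 2 were, all higher and COPB2 among them. In the wider list of 43 genes of COPI and Golgi transport the small GTPase ARF4 was the single member called in that test. It was higher by 0.24 (SE 0.05, adjusted p 0.0133, edgeR) and in 14 of 14 pairs. The offset gave 6 of the 43 higher and 1 lower, beside 7.36% called over all genes. Paired DESeq2 gave 8 higher and 1 lower, beside 7.81%. Of the 4 tested genes of the CREB3 family, ER and Golgi membrane-bound transcription factors, CREB3 was called and higher by 0.25.

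Of all genes, 1.72% were called within pairs. Among 24 genes of sterol synthesis 3 were higher and 0 lower, namely INSIG1 (0.32), MSMO1 (0.27) and SQLE (0.21), with 0 to 4 when pairs were left out. The GC and length offset gave 8 of them higher and 1 lower, beside 4.55% higher and 2.81% lower over all genes. Of 38 lysosome and autophagy genes the cargo receptor SQSTM1 was the single call, higher by 0.30 in 14 of 14 pairs. Of 42 genes of the senescence-associated secretory phenotype (SASP), 1 was called, IGFBP3, higher by 0.21. These counts, 2.63% and 2.38% of their lists, are near the share over all genes. The SASP median over all states was 0.10 within pairs, with 31 of 42 members above 0, and -0.04 in the unpaired fit. By state the unpaired fit gave 0.18, 0.01, 0.15 and -0.38 in DMSO-treated ER:RAS cells, OIS, DMSO-treated IMR90 cells and after bleomycin. CXCL8 and IL6 differed by 0.43 and 0.33 without a call (adjusted p 0.259 and 0.271). None of the cell cycle (35), RNA interference (16), apoptosis (26) and extracellular matrix (34) genes passed within pairs in edgeR without the offset. In that fit 3359 of all genes had an unadjusted p under 0.05. With the GC and length offset, 1 cell cycle gene was higher and 3 lower, and 1 RNA interference gene was lower. The offset also gave 4 apoptosis genes higher and 2 lower, and 3 extracellular matrix genes higher and 0 lower.

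Outside these lists, the genes most raised with shRNA 2 were of mixed roles. CCK, a peptide hormone precursor, led with a paired log2 fold change of 0.61 (SE 0.15, adjusted p 0.0393, edgeR), but its difference came from 3 states. It was at 7.80, 6.56, 6.03 and 7.36 CPM with shRNA 1 and 13.1, 13.5, 7.80 and 11.3 CPM with shRNA 2 after bleomycin, and at or below 0.189 CPM in DMSO-treated IMR90 cells. HTR2B, a serotonin receptor, followed at 0.56 and the lysine methyltransferase gene EEF1AKMT4 at 0.54. AKR1C1, an aldo-keto reductase whose reads may be shared with close paralogs, was higher in 14 of 14 pairs by 0.41. UPP1, a uridine phosphorylase, and SYNGR3, a synaptic vesicle protein, were higher in 14 of 14 pairs too, by 0.42 and 0.45. SYNGR3 did not overlap between the shRNAs in 3 of 4 states. AKR1C1, UPP1 and SYNGR3 kept their call whichever pair was left out, while CCK lost it in 12 of 14 such fits and HTR2B in 10. The remaining 6 genes of this set, KLHL35, WFDC1, FLJ46906, NAT8L, HES4 and C11orf96, differed by 0.42 to 0.52, and C11orf96 lost the call with the GC and length offset (adjusted p 0.0767, edgeR).

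COL8A2, which encodes a short-chain collagen of basement membranes, was the gene most reduced with shRNA 2 among those of sufficient count. In DMSO-treated IMR90 cells it was at 15.3, 15.9, 12.8 and 17.1 CPM with shRNA 1 and 5.87, 6.75, 7.17 and 7.23 CPM with shRNA 2. In DMSO-treated ER:RAS cells the levels were 9.9998, 10.8 and 8.14 CPM against 6.21, 4.73 and 5.51 CPM. The shRNAs did not overlap in these 2 DMSO-treated states. In OIS the gene stayed at or below 0.259 CPM, and after bleomycin the means were 1.23 ± 0.455 and 1.05 ± 0.306 CPM (SD, n = 4), which overlap. The paired log2 fold change was -0.88 (SE 0.12, adjusted p 0.00321, edgeR), and leaving out any pair kept the call. In DMSO-treated IMR90 cells alone it was the single gene called within pairs, at -1.18 (adjusted p 0.00177, edgeR).

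GALNT16, which starts the O-glycosylation of proteins in the Golgi, was lower with shRNA 2 in 14 of 14 pairs. Its levels in DMSO-treated IMR90 cells were 86.3, 61.0, 59.7 and 62.4 CPM with shRNA 1 and 54.6, 47.0, 41.1 and 45.2 CPM with shRNA 2. The groups were separate there and in OIS, where all levels were at or below 2.05 CPM. The paired log2 fold change was -0.52 (SE 0.07, adjusted p 0.00321, edgeR). FBXL14, an F-box protein, and KIFC1, a mitotic kinesin, were likewise lower in every pair, with log2 fold changes of -0.32 and -0.47, and FBXL14 did not overlap in 3 of 4 states.

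Other genes lower with shRNA 2 were of mixed roles. CD274 (PD-L1), an inhibitory ligand of T cells, was at 6.88, 4.89, 8.47 and 8.61 CPM with shRNA 1 after bleomycin and 4.87, 2.76, 5.37 and 4.43 CPM with shRNA 2. In OIS it was at 24.96, 16.9 and 33.5 CPM against 17.8, 12.9 and 26.7 CPM. The groups overlapped in both states, and CD274 was lower in 13 of 14 pairs, with a paired log2 fold change of -0.53 (SE 0.10, adjusted p 0.0152, edgeR). GBP1, an interferon-induced GTPase, was lower in 13 of 14 pairs, with a paired log2 fold change of -0.52 (SE 0.08, adjusted p 0.00749, edgeR). CD274 and GBP1 kept their call whichever pair was left out. Among the rest, the RhoGAP ARHGAP26 differed by -0.61, the neuronal membrane protein SLITRK5 by -0.54, PLPPR4 by -0.54, the cytokinesis gene ANLN by -0.50, the cadherin CELSR2 by -0.48, GPRASP1 by -0.47, ABAT, which breaks down GABA, by -0.46, and MYRF by -0.46.

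Some genes of the interferon response and RNA sensing list were lower with shRNA 2. Of 28 members tested, 0 were higher and 5 lower within pairs, beside 0.71% higher and 1.01% lower over all genes, and the median log2 fold change was -0.20. The called genes were OAS1 (-0.86), OAS2 (-1.05), OAS3 (-0.53), MX1 (-0.51) and IFI44 (-0.44), of which the OAS genes encode sensors of double-stranded RNA and MX1 is an antiviral GTPase. OAS3 in DMSO-treated ER:RAS cells was at 24.5, 24.9 and 16.8 CPM with shRNA 1 and 15.2, 17.8 and 11.3 CPM with shRNA 2, which overlap. OAS2 was low throughout, with means of 1.08 ± 0.849 CPM with shRNA 1 and 0.506 ± 0.360 CPM with shRNA 2 (SD, n = 14). OAS1 was low too, at or below 3.68 CPM in every library and at or below 0.259 CPM in OIS. Replicate 2 of shRNA 1 after bleomycin stood high in several members, with MX1 at 14.04 CPM beside 4.54 to 5.85 CPM in its group. Leaving out each pair gave 0 to 4 lower members, with 0 without pair 3 of DMSO-treated ER:RAS cells, where the calls over all genes also fell from 259 to 49. The median stayed between -0.23 and -0.14 in these fits. With the GC and length offset 10 members were lower, beside 2.81% over all genes. With paired DESeq2 6 were lower, beside 438 of 11558 genes. IFIT1, IFIT3 and BST2 differed by -0.27, -0.30 and -0.54 without a call (adjusted p 0.126, 0.0782 and 0.1004, edgeR).

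Both hairpins were also set beside the control shRNA. The 2 comparisons share the 14 control libraries, so their values are given side by side with no measure of likeness. Within pairs of the same number, shRNA 1 differed from the control in 316 of 15299 genes (2.07%) and shRNA 2 in 582 (3.8%), and without pairing in 21 (0.137%) and 76 (0.497%). Of the 107 genes higher with shRNA 2, 38 lay above the control with both hairpins, 14 below it with both and 55 on opposite sides. Of the 152 genes lower with shRNA 2, 123 lay on opposite sides of the control, 10 above it with both and 19 below it with both. Of those on opposite sides, 49 of the 55 and 101 of the 123 were called against the control with neither hairpin. Their sides are signs of uncalled differences, and the share of opposite sides over all genes was not counted. None of the 152 was called against the control with both hairpins, and 13 of the 107 were, all above it.

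For the PERK and ATF4 list the median log2 fold change against the control was 0.37 with shRNA 1, where 13 of 29 members were called higher within pairs, and 0.66 with shRNA 2, where 22 were. DDIT3 differed from the control by 0.64 and 0.99, TRIB3 by 0.55 and 0.93, PSAT1 by 0.68 and 0.97, and INHBE by 2.22 and 2.67. The interferon list had 0 members called against the control with either hairpin, and medians of 0.08 and -0.12. COL8A2 differed by 0.33 with shRNA 1 and -0.48 with shRNA 2, GALNT16 by 0.45 and -0.14, and CD274 by 0.52 and -0.02. GBP1 differed by -0.17 and -0.69.

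**Figure D4:**
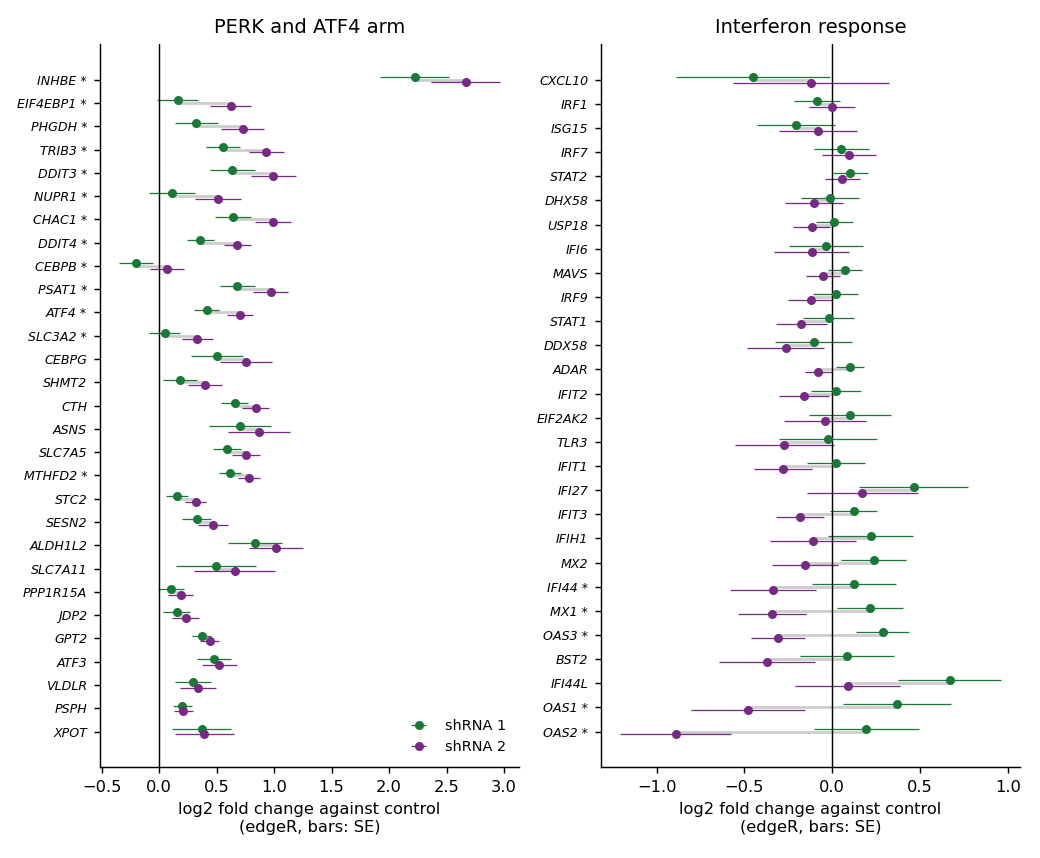
Fitted log2 fold change against the control shRNA over all states with shRNA 1 (green) and shRNA 2 (purple) for the genes of the PERK and ATF4 arm and of the interferon list; bars are SE, and a star marks an adjusted p under 0.05 between the shRNAs within pairs. In the left panel all genes but CEBPB lie above 0 with both hairpins and the starred ones lie further right with shRNA 2, while the starred genes of the right panel lie above 0 with shRNA 1 and below 0 with shRNA 2.

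Within single cell states few genes passed. The unpaired test called 0 genes in each state (0%), with 137, 123, 169 and 572 at an unadjusted p under 0.05 in DMSO-treated ER:RAS cells, OIS, DMSO-treated IMR90 cells and after bleomycin. Within pairs, edgeR called 0, 0, 1 (0.00664%) and 6 (0.0398%) genes. The 6 genes after bleomycin were all higher with shRNA 2 and 5 of them are named here: BEST1, a chloride channel (0.94), ID3, an inhibitor of bHLH transcription factors (0.72), AKR1C1 (0.64), PHGDH (0.61) and DDIT4 (0.54). ID3 was at 23.9, 17.1, 13.9 and 77.4 CPM with shRNA 1 and 40.9, 33.99, 21.4 and 113 CPM with shRNA 2, so replicate 4 stood far above the others with both hairpins. Over all states ID3 differed by 0.02. The test of a difference between states called 0 genes unpaired and 0 within pairs in edgeR (69 and 516 at an unadjusted p under 0.05), with FGFR3, RTL4, HPCA, GATM and DCDC2 at the smallest unpaired p. Within pairs and with no filter on low counts it called 1 gene, ID3 (adjusted p 0.00509, edgeR, and 0.143 with the filter), which is named here after its values were seen.

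The seed of each guide was looked for in the 3′ UTRs of tested genes, on the transcript strand. The match to guide 1, ATATTTA, was held by 4576 genes (33.9% of genes with a UTR), and the match to guide 2, TTCAATT, by 2348 (17.4%). Guide 1's match contains the letters ATTTA, and both matches are rich in A and T. Holders have longer UTRs: the median length was 2902 bases with the match to guide 1 and 1028 without it, 3383 and 1279 bases for guide 2, and 3347 and 1322 bases for the seed of a hairpin that was not used.

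Genes with the match to guide 2 had a median log2 fold change of -0.08 between the shRNAs, beside -0.00072 without it, and those with the match to guide 1 had -0.06 beside 0.01. The seed of a COPB2 hairpin that was in none of these libraries, whose match ATGATTG is held by 1944 genes, gave -0.06 beside -0.01. All 3 shifts point the same way. For each seed 6 of 14 pairs had the opposite sign, and the difference between holders and other genes had an SD over pairs of 0.226, 0.203 and 0.185. With the GC and length offset the medians were 0.00412, -0.0127 and 0.00992 for the holders of matches 1, 2 and the unused hairpin. Genes without the match had 0.00862, 0.0109 and 0.00666. The difference between holders and other genes was then -0.00449, -0.0236 and 0.00326, and these differences were not tested.

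The shares of called genes by seed are given without a test. Of the 891 genes with a match to guide 2 but not to guide 1, 25 (2.81%) were lower and 6 (0.673%) higher with shRNA 2, while of the 8030 genes with neither match 83 (1.03%) were lower and 75 (0.934%) higher. Of the 3119 genes with a match to guide 1 alone, 24 (0.769%) were lower and 19 (0.609%) higher, and of the 1457 genes with both matches 16 (1.1%) were lower and 3 (0.206%) higher. Over all genes, 41 lower genes held the match to guide 2 and 107 did not.

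Of the genes lower with shRNA 2, those named here that carry a match to guide 2 in the UTR of their canonical transcript are shown with it in capitals, on the transcript strand, to be read against the COPB2 site above.
COL8A2: ggtagagcgaccttTTCAATTa
GBP1: ctaaactgaaataaTTCAATTa
SGPL1: cgcctggctaatttTTCAATTt
The match in COL8A2 lies at chr1:36563105-36563126 (GRCh37, minus strand), 58 bases into the UTR, and 13 of its 22 bases face the guide. That in GBP1 lies at chr1:89518238-89518259 (minus strand, 12 bases) and that in SGPL1 at chr10:72637728-72637749 (plus strand, 11 bases). Counts of facing bases here include the 7 of the seed match by definition and come from the fullest site of each gene. Their chance level was not computed. SGPL1, a sphingosine phosphate lyase, had a paired log2 fold change of -0.24. SLITRK5 holds the match in a transcript that is not its canonical one. GALNT16, FBXL14, KIFC1 and CELSR2 have no match to either guide in their UTR.
One gene higher with shRNA 2 in every pair, SYNGR3, carries the match to guide 1 instead, at chr16:2044123-2044144 (plus strand), with 14 of 22 bases facing the guide.
SYNGR3: ccaattctgtgtggATATTTAa
Other named genes carry matches that run against these pairings. ARHGAP26 and CD274, both lower with shRNA 2, hold the match to guide 1 and not that to guide 2 in their canonical transcript. AKR1C1 and LURAP1L, both higher in every pair, have matches to both guides. A match is a description of these letters only, and whether any of these transcripts was bound was not measured.

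The relation of gene differences to the COPB2 left in the cells was examined in 2 ways. Over the 28 libraries, after the mean of each of the 8 groups was taken off, the level of a gene was compared with that of COPB2. Over the 14 pairs, its difference between the shRNAs was compared with the COPB2 difference, with no state mean taken off. Permutations ran over all 14 pairs, so differences between the states enter this relation. Both were computed for a family of 51 named genes with permutation p-values and Benjamini-Hochberg adjustment. Over libraries the permutations ran within each group separately. Same-numbered libraries deviated together and replicate 3 shared a shift in all 8 groups, which such permutations break up. The permutation p-values over libraries, here and below, may therefore be too small. The relation passed by Pearson's r for 20 genes over libraries and for 11 over pairs, by rho for 22 and 7, and by both for 18 and 6. The family includes WDR41, F3, UAP1, UGCG and ACP5, which were named for the smallest p of a slope on COPB2 in these libraries. Their passing over libraries was set by that choice, and they also enter the adjustment of the other genes.

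In the libraries COPB2 ran along a shift of the whole transcriptome. COPB2 and the slope of each library's expression on gene GC content had r = -0.757 (Spearman's rho -0.668, permutation p 0.00015 and 0.00184, r = -0.713 without the 2 libraries farthest from the median). Over the pairs the same relation had r = -0.839 (rho -0.886, permutation p 6e-05 and 4e-05, r = -0.802 without 2 pairs). COPB2 has a GC content of 43.0%. An absolute r above 0.5 with COPB2 was found for 56.3% of all tested genes over libraries and for 46.4% over pairs, so a strong r with COPB2 is common here, and how far it follows COPB2 or this shift cannot be told apart.

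With that reservation, the named genes most like COPB2 over libraries were WDR41 (r = 0.92), F3 (0.91), UAP1 (0.90) and UGCG (0.88). The most opposed was ACP5 (-0.91). All of these were picked by their slope on COPB2, so their r is no separate result. None of these was called between the shRNAs, paired or unpaired, without the GC and length offset. Of the shRNA-specific genes, CD274 (r = 0.73, rho 0.72, permutation p 0.00028 for r, adjusted 0.00143), GBP1 (0.67) and ANLN (0.76) rose and fell with COPB2 among libraries of a group, although they were lower with the shRNA that left slightly more of it. UPP1 (-0.74), AKR1C1 (-0.67, adjusted permutation p 0.0506 for rho), MYRF (-0.68), GALNT16 (-0.59) and MX1 (-0.65) ran opposite to COPB2. ATF4 (-0.21), COL8A2 (-0.15) and ARHGAP26 (0.14) did not pass.

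Over the pairs, ID3 (r = -0.83, rho -0.83, adjusted permutation p 0.00306 for r), SYNGR3 (r = -0.82, rho -0.79, adjusted permutation p 0.00527 for r), HERPUD1 (-0.80 and -0.76) and COL8A2 (-0.66 and -0.77) passed by r and by rho with a negative sign. AKR1C1 (-0.72 and -0.63), PHGDH (-0.71 and -0.69), ACP5 (-0.70 and -0.68), DDIT4 (-0.68 and -0.53) and EIF4EBP1 (-0.68 and -0.31) passed by r only, with adjusted permutation p for rho of 0.0858, 0.0503, 0.0503, 0.194 and 0.419. Over these pairs of mixed states, the more COPB2 shRNA 2 left relative to shRNA 1, the lower were SYNGR3, HERPUD1, ID3 and COL8A2 with shRNA 2. Over libraries HERPUD1 had the other sign (r = 0.25, rho 0.36) and did not pass. Without the 2 pairs farthest from the median of the COPB2 difference, r was -0.74 for SYNGR3, -0.79 for HERPUD1, -0.63 for AKR1C1 and -0.53 for PHGDH, and it dropped to -0.47 for DDIT4 and -0.33 for EIF4EBP1, whose relation rests on those pairs. CD274 had r = 0.58 without passing (adjusted permutation p 0.0979).

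**Figure D5:**
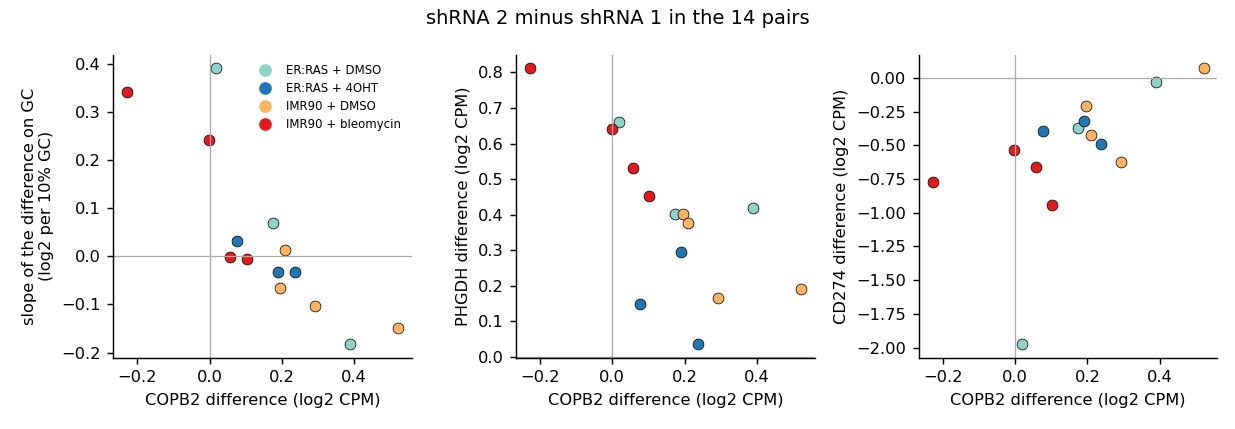
Each of the 14 pairs by its COPB2 difference in log2 CPM, shRNA 2 minus shRNA 1 (x axes), against the slope of its gene differences on GC content (left, log2 per 10% GC), the PHGDH difference (middle) and the CD274 difference (right), coloured by cell state. The left and middle points fall from upper left to lower right (r = -0.839 and -0.71), PHGDH is above 0 in all 14 pairs, and a single pair of DMSO-treated ER:RAS cells sets the lowest CD274 value.

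A fit with the COPB2 level as a term beside state and shRNA gave the differences at equal measured COPB2. That level ran along the GC shift given above, so the term may take off either. Whether a difference persists at equal knockdown cannot be read from this fit. Of the 259 genes called within pairs, 232 were also called given COPB2 in the same direction and 0 in the opposite direction, on the same pairs that selected them. The count over all genes was unstable, at 15 unpaired (0.0996%), with 0 to 3527 when 1 library was left out (3527 without replicate 2 of shRNA 1 after bleomycin), and 5673 within pairs (37.7%), with 1814 without pair 2 of the bleomycin-treated cells and 2955 (19.6%) with the GC and length offset. Given COPB2, the paired difference of ATF4 was 0.39 (adjusted p 0.000361, edgeR) and that of PHGDH 0.53 (adjusted p 0.0002, edgeR), beside 0.29 and 0.39 without the term. The slope on COPB2 itself was called for 9426 genes (62.6%) unpaired and 4833 (32.1%) within pairs, and for 1179 (7.83%) within pairs with the GC and length offset.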

How the data were processed

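Of 42 poly(A) RNA libraries, the 28 with a COPB2 shRNA were compared. The authors deposited raw counts per gene symbol without normalization (28266 symbols). The study's methods name Tophat with hg19 and Ensembl, and the submitters' processing notes name hg38, DRAGEN, STAR 2.7.8a and DESeq2 1.32.0, so the build behind the counts is not settled. How reads of overlapping genes were counted is not given in the sources used here. Coordinates and UTRs came from GENCODE on GRCh37, which matched 25055 symbols.

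Genes were filtered with filterByExpr, scaled with TMM factors and tested with edgeR 4.0.16 (R 4.3.3; glmQLFit, robust, two-sided, state plus shRNA, Benjamini-Hochberg over 15063 genes, called under 0.05). The labels number replicates alike for both shRNAs. Same-numbered libraries of a state correlated at 0.543 to 0.983 in all 14 pairs (7854 genes, group means taken off), and 13 of 14 correlated best with their own number, so the blocked values are given too. The pairing comes from these values, since the labels do not say what a number marks. GC content and length were known for 96.1% of tested genes and gave a loess offset per library. Log2 CPM of single libraries used a prior count of 2, and permutation p-values used 100000 permutations. DESeq2 1.42.0, size factors, no low-count filter, all 42 libraries and leaving out libraries or pairs were alternatives. Counts carry no molecular identifiers, so depth bounds counting error only. The unpaired and paired fits over all states were tested on simulated data. The simulated pair effects were drawn for each gene separately, without a shift along GC content, so they cannot speak to that shift.

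Members, lists and tests were chosen with earlier results of these data known, and nothing here was fixed blind to them. Named were COPB2, the 15 called genes with the highest and the 15 with the lowest fold change whose mean count reached 50 (or, where under 8 were called, the 8 of smallest p), up to 5 per direction in a state, the 5 of smallest p for the difference between states and the COPB2 slope, and list members. As the unpaired test called 0 genes, the rule was also applied to the paired test, a choice made after seeing the data. The result of a single gene is not reported here. A few list genes were not matched by symbol and were not used.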

Additional observations from a re-analysis of the deposited data

Results flagged for a closer look

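Among 208 groups of 4 libraries tested with Dixon's criterion, 26 single values lay farther from the rest of their group than its 95% limit allows. Chance does so in about 1 in 20 groups, and genes of the same library are not independent. COPB2, UGCG, UAP1 and ACP5 stood apart in replicate 3 only, and ACP5 alone of these lay below its group.

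These libraries of the DMSO-treated IMR90 cells stood apart, with the range of the other 3 libraries of the group in brackets. Replicate 1 of shRNA 1 had SYNGR3 at 5.02 CPM (others 3.87 to 4.04), UPP1 at 5.72 CPM (others 3.51 to 3.67), BEST1 at 60.6 CPM (others 19.7 to 25.8), GALNT16 at 86.3 CPM (others 59.7 to 62.4) and DCDC2 at 0.0534 CPM (others 0). Replicate 1 of shRNA 2 had PLPPR4 at 7.12 CPM (others 10.54 to 10.7). Replicate 3 of shRNA 1 had COPB2 at 70.5 CPM (others 43.5 to 45.7), UGCG at 174 CPM (others 103 to 112) and UAP1 at 101 CPM (others 51.4 to 59.6). Replicate 3 of shRNA 2 had ACP5 at 2.30 CPM (others 5.87 to 6.41), UGCG at 187 CPM (others 123 to 130) and UAP1 at 111 CPM (others 58.4 to 64.3).

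These libraries of the bleomycin-treated IMR90 cells stood apart, with the range of the other 3 libraries of the group in brackets. Replicate 2 of shRNA 1 had SGPL1 at 60.4 CPM (others 45.7 to 46.8) and MX1 at 14.04 CPM (others 4.54 to 5.85). Replicate 2 of shRNA 2 had HERPUD1 at 212 CPM (others 179 to 184) and HES4 at 12.9 CPM (others 5.13 to 5.73). Replicate 3 of shRNA 1 had ANLN at 10.2 CPM (others 5.02 to 5.69). Replicate 3 of shRNA 2 had ACP5 at 0.775 CPM (others 1.61 to 1.77), UGCG at 276 CPM (others 143 to 147) and UAP1 at 208 CPM (others 107 to 120). Replicate 4 of shRNA 1 had ATF4 at 296 CPM (others 201 to 212), HERPUD1 at 171 CPM (others 123 to 124), FLJ46906 at 6.31 CPM (others 1.03 to 1.83), C11orf96 at 119 CPM (others 8.02 to 16.8) and ID3 at 77.4 CPM (others 13.9 to 23.9). Replicate 4 of shRNA 2 had C11orf96 at 123 CPM (others 18.3 to 33.5).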

How the results depend on the processing

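The unpaired comparison over all states called 0 genes, and 259 with the replicate block, 5 with DESeq2, 1 with all 42 libraries, 11 with the GC and length offset, and 0 to 1 when each library was left out. The paired count was 903 with DESeq2, 1108 with the offset, 114 as the mean of the 4 states, 85 with all 42 libraries, and 49 to 515 without each pair. By state the replicate block with the offset called 16 genes in DMSO-treated ER:RAS cells, 58 in DMSO-treated IMR90 cells and 83 after bleomycin. The block alone called 1 and 6 in the last 2 of these, and DESeq2 called 1 in DMSO-treated IMR90 cells. The slope on COPB2 was called for 4833 genes with the replicate block, 3876 with the offset and 1179 with both, and the paired count ran from 951 (without pair 2 after bleomycin) to 5507 without each pair. Given COPB2, the block called 5673, the block with the offset 2955 and no low-count filter 8. Leaving out libraries gave 0 to 3527 (without replicate 2 of shRNA 1 after bleomycin), and leaving out pairs gave 1814 to 6239. Against the control, shRNA 1 called 316 with the block and 58 with DESeq2, and shRNA 2 called 582 and 127. The relation to COPB2 passed for 11 genes over pairs.

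The COPB2 difference was 0.16 in blocked DESeq2 and 0.20 with block and offset, both called, and 0.12 to 0.20 without each library or pair. In DMSO-treated ER:RAS cells it ran from -0.0311 (without replicate 3 of shRNA 2) to 0.41 and after bleomycin from -0.15 to 0.0911 (without replicate 3 of shRNA 1), and the offset turned it to 0.0985 unpaired and 0.102 paired. ID3 after bleomycin ran from -0.0470 (without replicate 4 of shRNA 2) to 1.5004 (without replicate 4 of shRNA 1), and the slope of UAP1 became -0.66 with block and offset. The causes were not tested. Depth limits genes of few counts, such as OAS1 and OAS2. The paired count and its alternatives, the paired tests with the offset, the pairs left out and the relation over pairs were chosen after seeing the data.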
